A study of Drosophila melanogaster with 2 samples.

Results

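Among 5867 reproducible Medea peaks in Drosophila embryos, 571 (9.73%) had their summit deep inside a gene, in intronic sequence far from the promoters of protein-coding genes. A summit, the base of highest signal in a peak, was counted here when it lay more than 5000 bp from every transcription start site (TSS) of a protein-coding gene, within the span of such a gene, and outside all exons of such genes. The embryos, of the strain Med-GFP, carried a Med-eGFP fusion, with GFP at the C-terminal end of Medea, as a stable transgenic line. They were whole animals of pooled sex, 0 to 24 h old, and chromatin was precipitated with an anti-GFP antibody. All samples formed 1 group of 2 biological replicates, numbered 2 and 3, with no second genotype, stage or treatment. The promoter that drives the fusion is not given in the labels. Whole embryos of mixed age combine many tissues, and peak lists hold no expression, so the labelled stage was not checked against marker genes. With 2 replicates of 1 group there was no contrast to test, and all intervals below are 95% intervals that cover counting error only. Positions are in build dm6 and signal is the authors' value for each peak, whose scale the sources used here do not state. Library depth is unknown.

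Medea, the only co-Smad of Drosophila, is shared by both branches of TGF-beta signalling. It enters the nucleus with the receptor-activated Smad Mad when Dpp and other BMP ligands signal, and with Smox when activin ligands do. Smads recognise a short GTCT box and GC-rich elements on DNA, and the zinc finger protein Schnurri joins Mad and Medea on a silencer element to shut down target genes. Introns of developmental genes in the fly often hold enhancers that act over a distance, and the inhibitory Smad gene Dad contains a well-known one, in which a Mad-Med activating element was described.

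The sequences of a few members are printed first, because the known elements that occur in them are few. Each runs from 50 bp before the summit to 50 bp after it, on the plus strand of the RefSeq Release 6 assembly, 5′ to 3′. The first 3 belong to the strongest members, in CG32486 (chr3L:3060741-3060841), osa (chr3R:17704366-17704466) and Gug (chr3L:8458276-8458376). Capitals mark the GTCT box or its reverse complement AGAC, which occurs once in osa and in neither of the other windows.
CG32486: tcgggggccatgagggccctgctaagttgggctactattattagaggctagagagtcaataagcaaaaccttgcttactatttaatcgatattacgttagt
osa: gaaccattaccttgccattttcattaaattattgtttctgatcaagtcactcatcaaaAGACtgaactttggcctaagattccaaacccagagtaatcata
Gug: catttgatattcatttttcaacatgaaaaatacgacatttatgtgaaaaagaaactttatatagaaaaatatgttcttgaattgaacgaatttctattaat

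The next windows come from genes of the Dpp pathway: the ligand gene dpp (chr2L:2433581-2433681), the glypican gene dally (chr3L:8841851-8841951), the type I receptor gene tkv (chr2L:5225724-5225824), and 2 neighbouring members in Dad (chr3R:17065150-17065250 and chr3R:17065350-17065450). Capitals mark the GTCT box in the first 4 windows, where dpp and the stronger Dad member have none, and the Mad-Med activating element in the second Dad window. That window was the only member summit with this element.
dpp: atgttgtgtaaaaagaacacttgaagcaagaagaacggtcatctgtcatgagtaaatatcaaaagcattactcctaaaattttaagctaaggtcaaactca
dally: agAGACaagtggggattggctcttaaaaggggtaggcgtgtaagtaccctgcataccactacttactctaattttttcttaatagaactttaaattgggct
tkv: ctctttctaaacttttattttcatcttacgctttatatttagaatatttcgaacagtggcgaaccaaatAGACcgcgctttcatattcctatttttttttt
Dad, stronger member: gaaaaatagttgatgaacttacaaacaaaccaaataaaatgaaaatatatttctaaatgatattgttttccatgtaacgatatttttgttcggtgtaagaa
Dad, weaker member: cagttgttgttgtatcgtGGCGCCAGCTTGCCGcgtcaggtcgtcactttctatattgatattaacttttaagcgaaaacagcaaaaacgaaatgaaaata

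The remaining windows show other elements. Eip75B (chr3L:18019769-18019869) was the strongest member with the Smad GC element GGCGCC and held 2 copies. The overlapping genes Ptp61F and ru (chr3L:1385792-1385892) and the gene CG1677 (chrX:7299822-7299922) had the only member summits with the Mad-Med-Shn silencer element. Myc (chrX:3381874-3381974) and Socs36E (chr2L:18145444-18145544) had the strongest members with the GATA motif AGATAAG, searched on both strands. Capitals mark the element named for each gene.
Eip75B: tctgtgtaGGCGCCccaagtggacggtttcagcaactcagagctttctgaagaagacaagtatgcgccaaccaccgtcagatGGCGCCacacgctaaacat
Ptp61F and ru: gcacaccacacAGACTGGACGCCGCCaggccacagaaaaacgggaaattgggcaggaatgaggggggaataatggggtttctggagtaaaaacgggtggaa
CG1677: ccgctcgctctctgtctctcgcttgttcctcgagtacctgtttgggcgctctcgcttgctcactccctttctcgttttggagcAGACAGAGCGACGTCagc
Myc: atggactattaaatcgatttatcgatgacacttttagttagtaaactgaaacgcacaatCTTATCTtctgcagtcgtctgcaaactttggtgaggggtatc
Socs36E: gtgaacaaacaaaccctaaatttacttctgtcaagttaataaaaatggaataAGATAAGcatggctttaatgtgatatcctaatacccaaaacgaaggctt

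Most members were of moderate signal. Their signal ran from 164.7 to 2503, with a median of 255.3 and quartiles of 202.8 and 402.9. The median was 295.8 at promoter summits (within 1000 bp of a TSS), 266.1 at near intronic summits (1000 to 5000 bp) and 259.0 at far intergenic ones. Of the 500 strongest peaks in the list 20 were members, of the 100 strongest 2, and 14 members exceeded a signal of 1000.

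The 12 strongest members lay in genes with varied roles. CG32486 led with a signal of 2503, alongside 1068 in replicate 2 and 1444 in replicate 3, and osa, which encodes a subunit of the Brahma chromatin remodelling complex, followed with 2446 (1040 and 1420). The osa summit also lies in an exon of a non-coding RNA gene, 721 bp from its nearest non-coding start. CG32486 and osa were far above the third, Gug, the gene for the co-repressor Atrophin, with 1547 (735.2 and 819.2). The summit with a signal of 1250 lay in both Mi-2, which encodes the ATPase of the NuRD remodeller, and Su(Tpl), which encodes an ELL elongation factor (530.8 and 727.1). Raf, the kinase gene downstream of Ras, had 1186 (509.2 and 664.5), and the nuclear receptor gene Hr4 had 1186 (467.2 and 717.2) at its strongest summit and 1097 and 1089 at 2 others. Also among the strongest were gpp, the Dot1 histone methyltransferase gene, at 1140 (542.8 and 615.7), rdx, a gene for an adaptor of Cullin-3 that acts in Hedgehog signalling, at 1132 (459.5 and 678.5), Lrch at 1131 (360.2 and 855.4), beat-Ib at 1107 (516.0 and 587.8) and wdb, for a regulatory subunit of PP2A, at 1096 (410.1 and 691.1). Each of the 12 strongest had more signal in replicate 3 than in replicate 2. So did 408 of the 535 members with a peak in both relaxed lists. The median log2 ratio of replicate 3 to replicate 2 in these members was 0.31 (SD 0.73, n = 535). It was 0.36 at promoter, 0.28 at near intronic and 0.22 at far intergenic summits, so the offset was not particular to members.

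Support from both replicates was found for 365 of the 571 members, or 63.9% (Wilson interval 59.9 to 67.8), when each replicate was cut to its 5867 strongest peaks and a summit within 100 bp counted. Over all reproducible summits the share was 67.4%. Taken singly, replicate 2 supported 83.9% of members and replicate 3 supported 79.7%. The share was 98.0% among the 100 strongest members. This is partly built in, since the signal that ranks them comes from the same replicates as the top lists. Of the 12 strongest only the Lrch summit missed a list, its nearest summit in replicate 2 being 175 bp away. A second Lrch member (645.9) was another summit of the same peak. In all, 9 members overlapped another reproducible peak, so that such neighbours can share a replicate value. Of all members, 20 overlapped no relaxed peak of replicate 2 and 16 none of replicate 3. Across the 535 members with both values Spearman's rho between the replicate signals was 0.58, against 0.69 at promoter summits; this is a description, since all points share 2 libraries.

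Some members owed most of their signal to replicate 3. Its signal was more than 4 times that of replicate 2 at 26 members (4.86% of those with both values), against 4.92% over all reproducible peaks. In no member with both values was the ratio reversed to that extent. The 20 members with no peak in replicate 2 and the 16 with none in replicate 3 are outside these counts. One summit in the ecdysone receptor gene EcR had 84.83 in replicate 2 and 440.6 in replicate 3, one in the co-repressor gene sbb 94.90 and 411.1, and one in the insulin receptor gene InR 23.66 and 344.5. The InR summit was picked out after its values were seen.

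**Figure D1:**
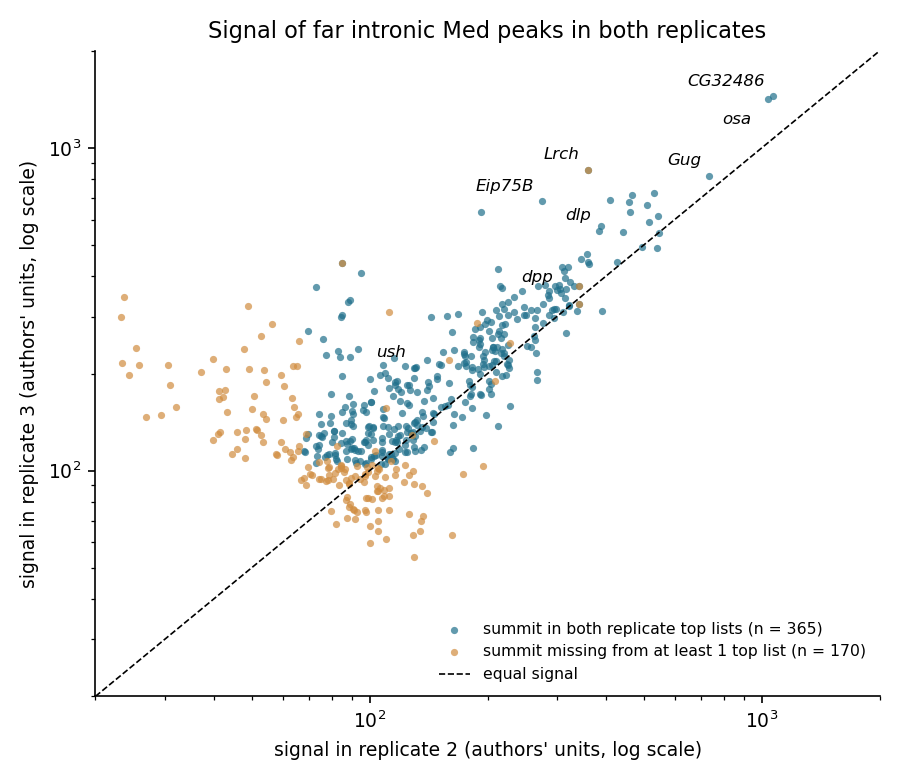
Signal of 535 members in replicate 2 (x axis) and replicate 3 (y axis), both in the authors' units on log scales, with 1 point per member and the dashed line at equal signal. Blue points have a summit in both top lists and orange points miss at least 1. CG32486 and osa sit apart at the top right, and the points above the line at low replicate 2 signal are the members carried mainly by replicate 3.

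Members thinned out with distance from promoters. Far intronic sequence amounted to 30.19 Mb, and the density of members in it was 18.9 per Mb (exact Poisson interval 17.4 to 20.5). Replicate 2 alone gave 22.4 and replicate 3 alone 17.95. For comparison, the density was 134.8 per Mb within 1000 bp of a TSS, 46.6 in near intronic sequence and 13.4 in far intergenic sequence. Within far introns it was 29.1 per Mb at 5 to 10 kb (312 members), 20.3 at 10 to 20 kb (179 members), 13.8 at 20 to 50 kb (77 members) and 0.592 beyond 50 kb. Both replicates gave this order. With annotated transposable elements left out of the sequence, the densities were 31.4, 22.0, 15.3 and 0.665.

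The 3 members beyond 50 kb lay in Sema1a, a semaphorin gene of axon guidance (61647 bp, signal 423.0), in olf413 (55586 bp, 251.9) and in hth, the homeobox gene for a Hox cofactor (53460 bp, 281.2). The median distance was 9381 bp. For 386 members (67.6%) the nearest start belonged to the host gene itself, and for the others it belonged to a different gene. At the edge of the rule, the members closest to 5000 bp were in Ac13E (5003 bp, signal 450.7), cno (5007 bp, 300.5) and SLO2 (5008 bp, 166.8). The summits that just failed it were in tara (4999 bp, 312.8), dnt (4995 bp, 281.9) and Liprin-gamma (4988 bp, 199.7). No member lay within 5000 bp of the start of a RefSeq mRNA.

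Members were frequent in first introns. Of the 571, 191 lay in the first intron of a canonical transcript, a share of 33.5% (Wilson interval 29.7 to 37.4), where 19.5% of far intronic sequence was first intron. That is 32.5 members per Mb in first introns against 15.6 elsewhere. These were not matched for distance to a start, and the part of distance in the contrast was not tested. First introns held 31.4% of the far intronic summits of replicate 2 and 34.7% of those of replicate 3. Only 1 member, in Ten-a, fell in an annotated transposable element, although such elements made up 8.77% of the sequence. The rule used protein-coding genes only. Within 1000 bp of the start of a non-coding RNA gene there were 19 members (3.33%), against 1.90% of the sequence, among them members in osa, beat-Ib, puc and dlp, and 3 members lay in exons of such genes. With starts and exons of all genes in the rule, 498 members were left, osa, EcR, beat-Ib and puc had none, pnt went from 7 to 1 and dlp from 3 to 1.

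The X chromosome had the highest density, with 145 members and 27.95 per Mb (exact Poisson interval 23.6 to 32.9). Densities on arms 2L, 3L, 2R and 3R were 21.9, 17.4, 15.7 and 15.6 per Mb, and no member lay on chromosome 4, which held 0.288 Mb of far intronic sequence (interval up to 12.8 per Mb). The X stood above the other arms in replicate 2, at 34.9 per Mb against at most 24.7. In replicate 3 it did not, with 22.9 per Mb on the X and 23.2 on 2L.

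**Figure D2:**
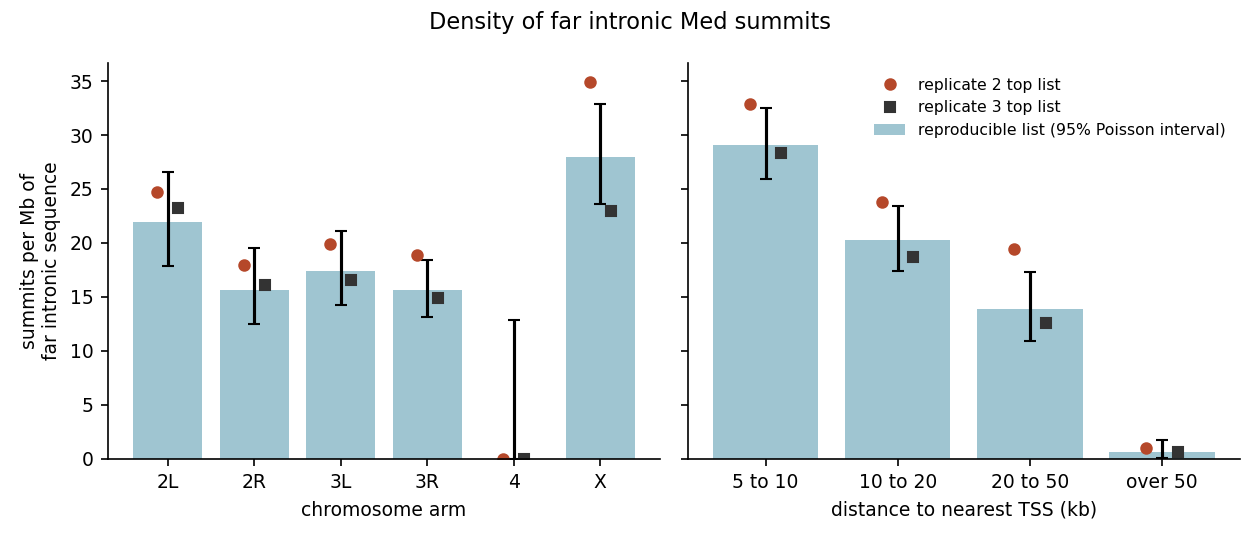
Members per Mb of far intronic sequence by chromosome arm (left) and by distance to the nearest TSS in kb (right). Bars are the reproducible list with exact Poisson 95% intervals, circles stand for replicate 2 and squares for replicate 3 (top lists). Density falls from 29.1 at 5 to 10 kb to 0.592 beyond 50 kb in the bars, and the X is highest in the bars and circles but not in the squares.

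The members were spread over 336 host genes, 18.1% of the 1852 protein-coding genes that contain any far intronic sequence. Of the hosts, 199 had 1 member, 70 had 2 and 67 had 3 or more. In 261 hosts (77.7%) both replicates also placed a far intronic summit. Hosts were long genes, with a median of 38226 bp against 18498 bp for the other eligible genes. Of the members, 269 (47.1%) had another member within 10000 bp and 122 within 2000 bp. The share for randomly placed summits was not computed, so these counts do not show clustering.

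The genes with the most members differed in how their summits were arranged. The adhesion gene kirre, which acts in myoblast fusion, had 10 members with signals from 169.1 to 481.2 and no promoter summit. The co-repressor gene sbb had 8, and pnt, the Ets factor gene of EGFR signalling, had 7 within 1 intron of 24337 bp (186.0 to 670.8). Hr4 and the trithorax-related gene tara had 6 each, and 7 genes had 5 each (Raf, rdx, Snoo, B4, CG42238, CG12535 and crp). Snoo, the fly gene of the Ski and Sno family of Smad-binding proteins, had its 5 members in an intron of 78434 bp. It is the only intron of the canonical transcript. Their signals were 731.1, 416.8, 328.1, 319.3 and 206.9, and all 5 were found in both replicates.

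Host genes often had a Medea summit at their own promoter too. A promoter summit was present in 62.5% of hosts (210 of 336) and in 36.9% of the other eligible genes (560 of 1516). The contrast was present at each amount of far intronic sequence: 56.8% against 43.1% up to 5000 bp, 67.2% against 30.4% up to 20000 bp, 58.7% against 30.4% up to 50000 bp, and 35 of 56 hosts against 19 of 76 other genes above that. Hosts had a median of 2 annotated starts and the others 1. Among genes with 1 start the shares were 62.2% and 28.8%. They were 59.4% and 44.8% with 2 to 4 starts, and 87.0% and 59.15% with 5 or more. The part of the number of starts was not tested. With hosts and promoter summits both from replicate 2, the shares were 45.7% and 33.5%. Both from replicate 3, they were 74.2% and 38.95%. With hosts taken from replicate 2 and promoter summits from replicate 3, the shares were 65.5% and 39.5%, and the other way round 51.9% and 32.8%. Genes are not independent replicates, so no test was made. The promoter summit was stronger than the strongest member in 115 hosts and weaker in 95, and 126 hosts (37.5%), Hr4, kirre and Dad among them, had none.

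Genes of the Dpp pathway were hosts more often than the average eligible gene. Of 9 eligible Dpp targets 4 were hosts (Dad, cv-2, bi and ush), and of 8 eligible BMP and activin components 6 were (dlp, dpp, sog, dally, tkv and shn), against the 18.1% for all. The density was 71.2 members per Mb in the targets (exact Poisson interval 34.1 to 130.9) and 78.7 in the components (37.7 to 144.7). The replicates gave 78.3 and 92.6 for the targets and 78.7 in both cases for the components. Each list had 10 members, so the intervals are wide, and no test was made. Among all eligible genes the share of hosts rose with the amount of far intronic sequence. It was 4.36% up to 5000 bp, 23.5% up to 20000 bp and 36.3% up to 50000 bp. No list here or below was matched for this amount, and its part in the shares was not tested.

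The strongest of these lay in dlp, which encodes a glypican that binds Dpp at the cell surface. Its 3 members had signals of 932.8 (385.4 in replicate 2 and 554.8 in replicate 3), 455.4 (217.7 and 238.8) and 378.5 (179.5 and 189.4), all found in both replicates. The related gene dally had 396.0 (190.8 and 198.8), 250.7 (96.72 and 160.1) and 169.0 (53.50 and 122.5), the last in 1 replicate only. In the ligand gene dpp the single member had 669.7 (307.9 and 355.6), 5259 bp from the nearest start. The secreted BMP regulator gene cv-2 held 4 members at 528.8, 383.3, 377.6 and 210.5, each supported by both replicates. The gene of the BMP antagonist sog had 485.1 (220.6 and 265.1). The strongest member of dally was nearly equal in both replicates. Those of dpp, sog and dlp were higher in replicate 3, with log2 ratios of 0.21, 0.26 and 0.53. The median over members was 0.31, so dpp and sog lay below it.

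Dad held 2 members whose summits were 200 bp apart. The stronger had 683.1 and the weaker, whose window holds the activating element printed above, had 300.1. Both took the same signal in each replicate (341.4 and 373.6), that of the strongest overlapping peak. In replicate 3 the nearest top-list summits lay 52 and 68 bp from them, so that list held a separate summit for each. In replicate 2 the distances were 29 and 229 bp. Its top list thus had no summit within 100 bp of the weaker member. The T-box gene bi had 441.9 (227.1 and 219.7). The zinc finger gene ush, a GATA cofactor, had 340.5 (130.3 and 208.7), 238.8 (30.65 and 212.6) and 196.9 (108.7 and 83.20), and only the first had a summit in both top lists. The receptor gene tkv, at 203.0 (82.56 and 119.0), and shn, the gene of Schnurri, at 182.0 (97.77 and 82.45), were at the weak end, and neither had a summit in both top lists.

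Ecdysone response and nuclear receptor genes had 12 hosts among 17 eligible genes, a share of 70.6% and the next highest of the 16 lists after the BMP components, with 28 members and 54.5 per Mb (36.2 to 78.8). Replicates 2 and 3 gave 56.5 and 58.4. Besides Hr4, the members included the nuclear receptor genes Hr3 at 1034 (541.6 and 488.6; CG12912 and CG46321 span the same summit), Eip75B at 968.0 (275.6 and 683.4) and EcR at 958.8 (390.3 and 573.6). The Smad GC element GGCGCC occurred at 10 member summits, 1.75% of all members, against 1.31% of flank windows 500 bp away. Of these, 4 were in Eip75B (968.0 and 589.8), Hr4 (624.9) and the Ets gene Eip74EF (299.8). The others were in genes outside this list: retn, Atg5 with CG1677, Dad, Ca-alpha1T, fz2 and pdm3. With so few matches, no concentration of the element in this list is claimed.

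Genes of other signalling pathways were hosts as well. In the EGFR and FGF list 6 of 13 eligible genes were hosts, with 18 members and 73.0 per Mb (43.3 to 115.3). They included S, which takes part in ligand export, at 825.6 (192.4 and 633.0), pnt at 670.8 (300.8 and 362.5), ed at 532.3 (210.0 and 313.9) and the ligand gene vn at 424.7 (88.05 and 332.9). S and vn had over 3 times as much signal in replicate 3, whereas pnt did not. In the Wingless list 5 of 10 were hosts, at 50.4 per Mb (26.0 to 88.0), led by the receptor gene fz at 995.0 (496.5 and 493.5) and the feedback inhibitor gene nkd at 538.2 (217.2 and 329.5). In the Notch list 2 of 8 were hosts, the receptor gene N at 871.9 (426.8 and 444.1) and the coactivator gene mam. Its density of 31.4 per Mb rested on 5 members and was 12.6 in replicate 3. In the Hedgehog list 1 of 5 was a host, the receptor gene ptc, with a signal of 202.5.

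Lists of patterning and chromatin genes were small. Of 11 eligible genes in the list of segmentation genes 4 were hosts (Awh, cad, knrl and wg), with 5 members in all. Awh, a homeobox gene in that list, is not a segmentation gene in the strict sense and held 2 of the 5. Of 8 Hox genes 2 were hosts, Antp with 4 members of up to 434.6 and Ubx with 2, at 28.1 per Mb (10.3 to 61.2). Of 14 Polycomb and trithorax group genes 3 were hosts, a share of 21.4%, near that of all eligible genes. Their density was 63.5 per Mb (23.3 to 138.2), with 52.9 in replicate 2 and 63.5 in replicate 3, and rested on 6 members. They were osa, Psc at 795.3 (359.6 and 444.3) and the Mediator subunit gene skd. Cell shape and cytoskeleton genes had 13 hosts of 42, at 40.0 per Mb (24.8 to 61.2), among them the integrin gene mew at 704.0 (314.3 and 395.0) and puc, the JNK phosphatase gene, with members of 599.7 (257.3 and 315.6) and 529.5 (234.1 and 310.5).

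Neuronal lists had densities below the 18.9 per Mb of all far intronic sequence, and the interval excluded that value for ion channel and synaptic genes alone among them. Density also fell with distance from promoters, and the lists were not matched for distance. The axon guidance list covered 2.96 Mb in 82 eligible genes and the Dpp target list 0.14 Mb in 9. The part of gene length and distance in the list densities was not tested. Axon guidance and adhesion genes had 18 hosts of 82, a share of 21.95% against 18.1% for all, and 16.2 members per Mb (11.96 to 21.5), with beat-Ib and side (686.0) the strongest. Replicate 2 gave 24.0 per Mb, above its 22.4 for all far introns, and replicate 3 gave 12.2. Neural transcription factor and RNA-binding genes had 16 hosts of 58 (27.6%) and 14.5 per Mb (9.72 to 20.9), with 20.5 and 16.0 in the replicates, led by ct at 663.8 (315.1 and 343.6). Ion channel and synaptic genes had 8 hosts of 55 (14.5%) and 9.32 per Mb (4.82 to 16.3), with 9.32 in replicate 2 and 5.44 in replicate 3. Muscle structure genes had 2 hosts of 16 (Mef2 and Msp300), at 17.3 per Mb. Cuticle, mucin and matrix genes had 7 of 22, at 18.9 per Mb, among them the perlecan gene trol at 598.0 (291.9 and 313.6).

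**Figure D3:**
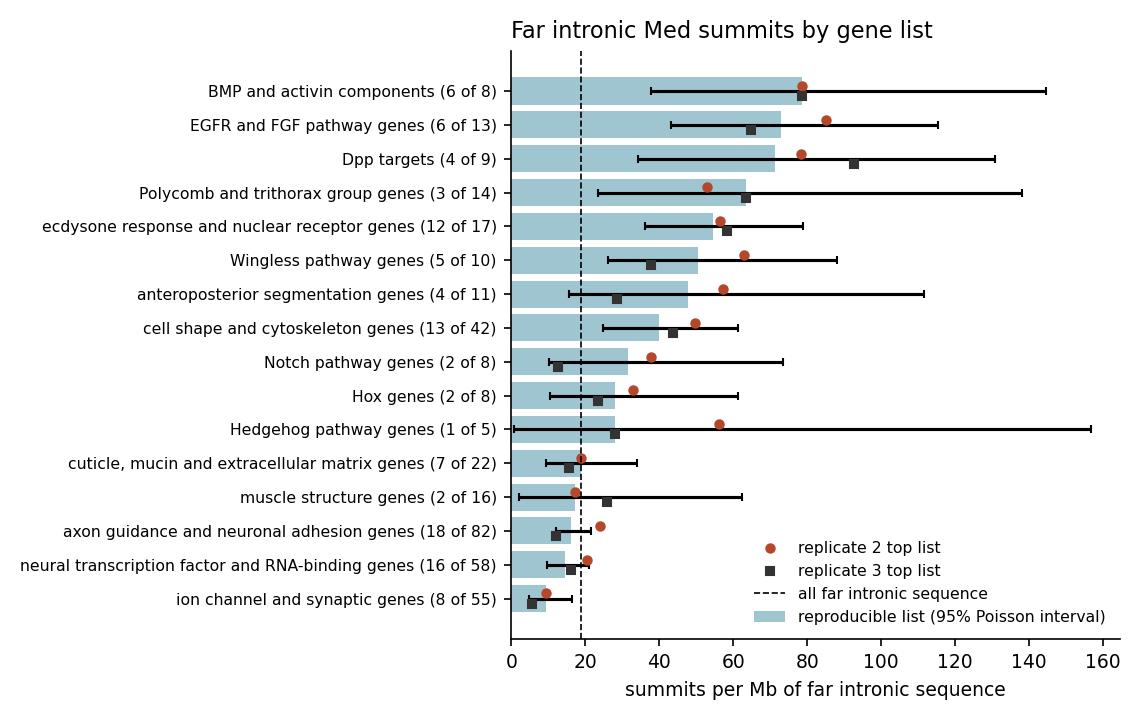
Members per Mb of far intronic sequence in 16 gene lists, with the number of hosts among eligible genes in parentheses. Bars are the reproducible list with exact Poisson 95% intervals, circles and squares are the replicate top lists, and the dashed line marks 18.9 per Mb for all far intronic sequence. BMP, EGFR and Dpp target lists are at the top and the ion channel list at the bottom. The lists were not matched for distance to a TSS.

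The base composition dipped at the summits. Windows of 50 bp to each side of member summits had a mean GC content of 35.8% (SD 8.21, n = 571), equal windows centred 500 bp away 41.4%, and all far intronic sequence 40.3%. The difference between summit and flanks was -5.64 percentage points, and the summit was lower than its flanks in 407 members (71.3%). Replicate 2 alone gave -8.22 and replicate 3 alone -3.33, so its size differed by more than 2 times between the libraries. Other classes dipped as well, by -5.98 points at near intronic, -4.77 at far intergenic and -4.30 at promoter summits. The dip was narrow and was flanked on both sides by a shoulder of higher GC content. Of the 12 6-mers with the largest gain over the flanks, 11 held no G or C. AAATAT led them, in 29.4% of summit windows and 16.5% of flank windows.

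**Figure D4:**
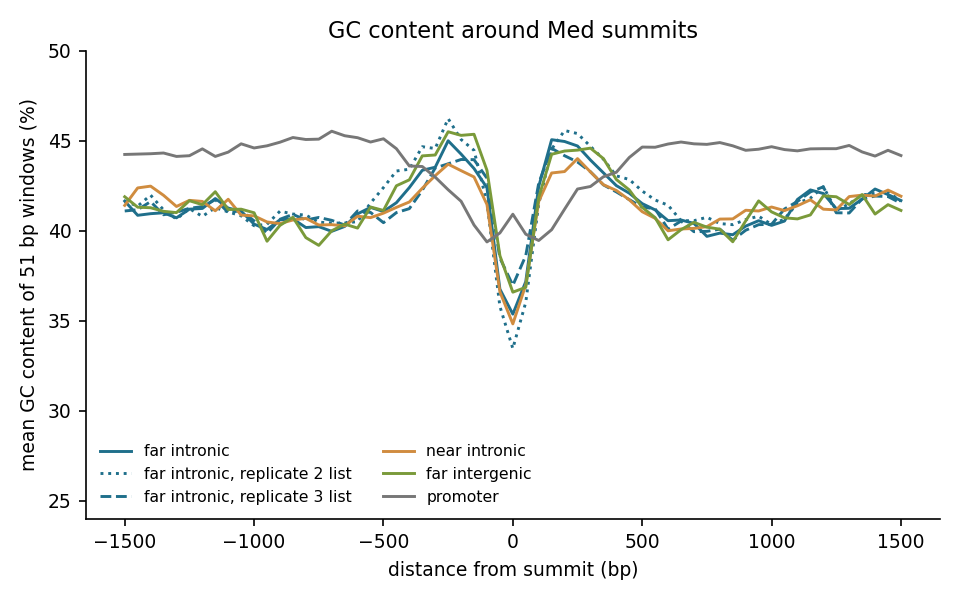
Mean GC content in % of 51 bp windows by distance from the summit in bp. Lines are members (blue, with each replicate's list dotted or dashed), near intronic, far intergenic and promoter summits. The members dip at the summit, more deeply for replicate 2 (a difference of -8.22 points from the flanks) than for replicate 3 (-3.33).

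The short Smad box was not more frequent at member summits than beside them, and longer Smad elements were rare. The GTCT box occurred in 190 windows, or 33.3% (Wilson interval 29.5 to 37.2), against 37.9% of flanks and 37.7% of all far intronic windows of that length. Replicate 2 alone gave 29.3% and replicate 3 alone 36.9%. The GC element GGCGCC was in 1.75% of summits, 1.31% of flanks and 1.07% of all far intronic windows. The Mad-binding GC motif GCCGNCG was in 1.23% of summits and 3.33% of flanks. The silencer element was found at 2 summits and in no flank, while 0.0421% of all far intronic windows held it. One of these, in Ptp61F and ru, had a signal of 283.6 (47.83 and 238.8), and the other, in CG1677, had 261.2 (112.1 and 311.1); neither had a summit in both top lists. The activating element was in 1 summit and 2 flanks.

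A few other motifs were more frequent at summits. The GATA factor motif, AGATAAG, was in 13 windows, 2.28% (Wilson interval 1.34 to 3.86), against 0.788% of flanks and 1.17% of all far intronic windows. Replicate 2 alone gave 2.22% with 1.04% of its flanks, and replicate 3 alone 2.21% with 1.29%, so the excess over the flanks was smaller in each replicate, and in replicate 3 by more than 1.5 times. The windows in Myc (675.3), Socs36E (643.6) and Myo10A (563.0) were the strongest with it. Pangolin (CTTTGAT), the Wingless effector motif, was in 3.33% of summits and 1.58% of flanks, but in replicate 3 in 2.03% of both. Forkhead (TGTTTAC) was in 4.20% and 2.36%, and its share was 2.22% in replicate 2 and 6.27% in replicate 3. The proneural E-box CAGCTG went the other way, with 1.58% of summits and 4.64% of flanks. The AT-only motifs TAATTA (5.60% of summits and 7.36% of flanks) and TATATATA (0.701% and 1.93%) were also less frequent at the summits, although these are poorer in GC than the flanks. The part of base composition in the motif shares was not tested. All motifs were searched on both strands, GTCT matches can lie within longer Smad elements, and a match does not show a bound site.

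The motifs of DREF and M1BP, factors that bind core promoters, were rare at members. By the rule members lie over 5000 bp from starts, so the contrast with promoter summits is not a separate result. The DREF motif TATCGATA was in 0.175% of member summits (1 window) and 5.28% of promoter summits, with 0.215% of all far intronic windows. The M1BP motif GGTCACACT was in 0.350% of member summits (2 windows) and 2.43% of promoter summits. It was in 0.0483% of all far intronic windows and in no flank. CGATA, the BEAF motif and part of the DREF one, was in 10.2% of member summits and 26.8% of promoter summits, with 10.4% of all far intronic windows.

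**Figure D5:**
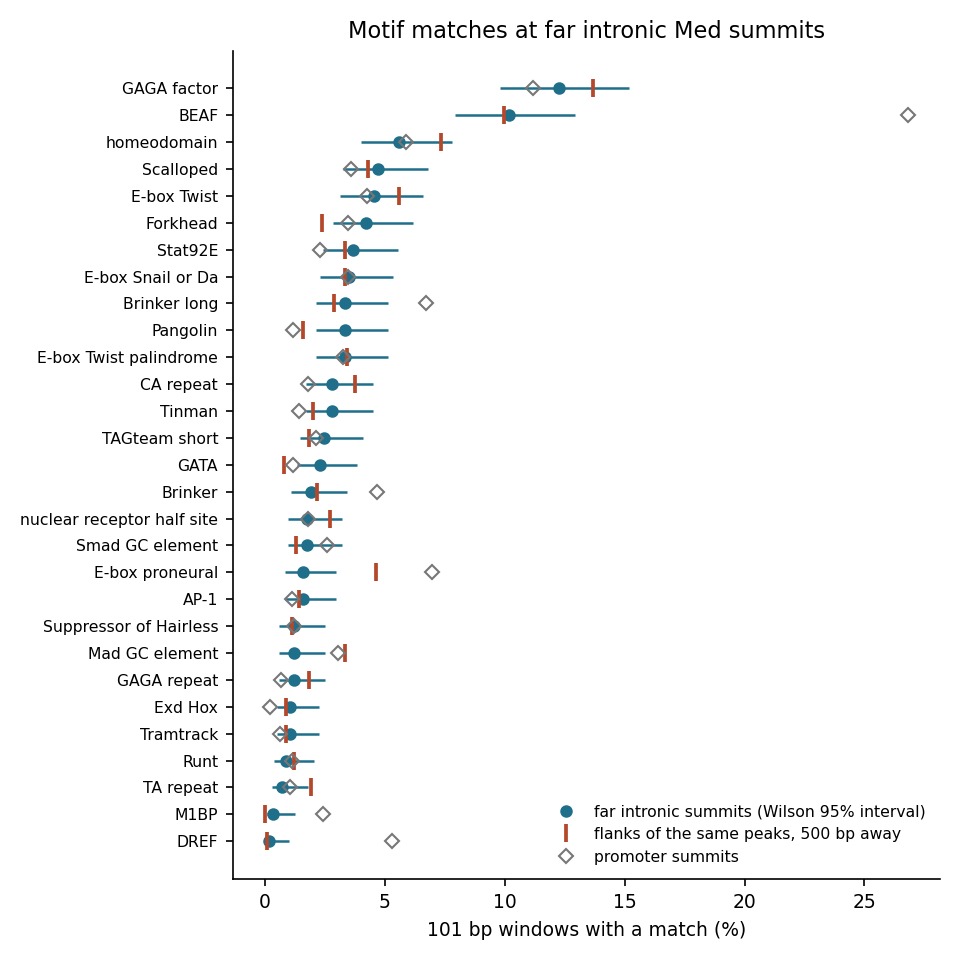
Share of windows with a match (x axis, %) for 29 motifs, at member summits (circles with Wilson 95% intervals), in flanks 500 bp away (vertical marks) and at promoter summits (diamonds). Motifs in 30% or more of all far intronic windows, or under 1% in all 3 sets, are not drawn. The promoter diamonds of DREF (5.28%), M1BP (2.43%) and BEAF (26.8%) lie right of the member circles (0.175%, 0.350% and 10.2%). Other motifs share this, such as the proneural E-box (6.95% at promoters and 1.58% at members). GATA lies right of its flank mark.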

How the data were processed

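Per the labels' protocols and the deposited file names, the authors made relaxed peak lists per replicate and for both replicates together, and an optimal list of reproducible peaks. Aligner, peak caller, thresholds: not given in the sources used here, so their effect is unknown. Peaks were ranked within lists by the deposited signal; the deposited −log10 values and the dm3 lists were not used. The reproducible list was the 5867 strongest peaks of the pooled one. Replicate signal is that of the strongest overlapping peak in a relaxed list of 30000.

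Genes came from Ensembl BDGP6.54 release 115 (13945 protein-coding genes) and sequence from RefSeq Release 6, both on dm6. Classes, densities, intervals and motif counts (36 motifs, both strands) were computed in Python 3.11.15 with numpy 2.4.6, pandas 2.3.3 and scipy 1.17.1, and the counting was tested on simulated data. Densities divide by the sequence that meets the same rule, and a gene was eligible if it had any. Members, 16 gene lists (600 symbols, 5 unmatched, some genes in 2 lists) and motifs were chosen with earlier results of these data known. Hosts were named by rule: the 12 strongest members, the 8 genes with most members (ties by summed signal), all Dpp and BMP hosts, and in other lists up to 4 hosts by strongest member. Of 21 windows chosen by rule, 13 are printed. No test was made, because regions and genes are not replicates. Alternatives were other distances, annotations, lists, windows and each replicate alone.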

Additional observations from a re-analysis of the deposited data

How the results depend on the processing

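With the limit at 2500 bp there were 931 members (23.46 per Mb, 37.16% in first introns, 516 hosts), and at 10000 bp 259 (13.3 per Mb, 28.57%, 154 hosts). The stronger part of the list, above a signal of 282.0, left 247 members (8.18 per Mb, 36.84% in first introns, 179 hosts), of which 92.71% had both replicates. Members in both top lists numbered 365 (12.09 per Mb). These counts follow from the construction of the alternatives. With summits shared within 50 bp, support was 56.74%. The GTCT share was 19.61% in windows of 51 bp (flanks 20.14%) and 56.57% in windows of 100 bp to each side (flanks 57.88%). From 1 replicate alone, members numbered 542 to 676, density was 17.95 to 22.39 per Mb, the first intron share 31.36% to 34.69%, hosts 314 to 385, the GTCT share 29.29% to 36.9% and the GC difference -8.218 to -3.329 points; the cause was not tested. Starts and exons of all genes gave 498 members and 18.06 per Mb, moved 13 of 69 named genes and left 8 without a member. The 10000 bp limit moved 39 of the 69 and left 29 without a member. The stronger part of the list moved 36 and left 12 without, and members in both top lists moved 27 and left 7 without. The 2500 bp limit moved 12 and left 0 without, replicate 3 alone 15 and 4, and replicate 2 alone 14 and 2. Chosen after seeing the data, sequence without transposable elements gave 20.69 per Mb and flanks at 1000 bp a GC difference of -4.631. No paired analysis was possible because there was 1 group. Read depth is unknown, which limits the reading of weak members and of ratios between replicates.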
